A study of Mus musculus with 6 samples.

Results

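The genes described here were 10 immediate early and stress genes, Fos, Fosb, Junb, Jund, Egr1, Atf3, Klf2, Klf4, Ier2 and Hspa1a, followed through single-cell RNA sequencing of the mouse sciatic nerve. They were taken by symbol from the gene list of the count matrices, in which each symbol stands once, and they are 10 of 41605 genes listed. All of them had UMIs in all 6 libraries and in each of the cell classes below. A UMI (unique molecular identifier) is a tag that counts 1 captured RNA molecule.

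Nerves were taken on day 1 (P1) or day 60 (P60) after birth, with 3 libraries of the 10x Chromium 3' v2 chemistry at each age, and each library was an independent suspension pooled from male and female mice. All animals, at both ages, were P0Cre; ReYFP; βAct-DsRed on the C57bl/6J background: DsRed is driven by the β-actin promoter and was the mark for sorting, and P0Cre switches on eYFP in the Schwann cell lineage. At P1 the cells positive for both DsRed and eYFP were in addition partly removed, so that the share of Schwann cells at that age was set by the sort. Minced nerves of both ages were digested with warm trypsin, collagenase and hyaluronidase before sorting, and undissociated nerve was not analysed here, so the part of dissociation in any level below was not tested.

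Immediate early genes are transcribed within minutes of a stimulus from transcription factors that are already present in the cell, with no need for new protein synthesis. Fos, Fosb, Junb and Jund encode subunits of the dimeric transcription factor AP-1, and Atf3 encodes a related bZIP factor that is induced by stress and, in Schwann cells and neurons, by nerve injury. Egr1 encodes a zinc finger factor, Klf2 and Klf4 encode Krüppel-like factors that laminar flow induces in endothelium, Ier2 encodes a small nuclear protein of the fast response, and Hspa1a encodes the inducible cytosolic chaperone HSP70. The same genes are well known to respond to tissue dissociation.

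After cells with 500 to 5000 detected genes were kept, the libraries held 3435 to 4586 cells, 24337 in all, from 20092957 to 29371559 UMIs per library. Any pair of libraries had at most 32 cell barcodes in common. The library labelled P60 replicate 3 stood apart: its median of 3627 UMIs per cell was the lowest of the 6, against 4982 to 6840 in the others, and 16.2% of its cells had more than 10% mitochondrial UMIs, against 2.97% and 4.84% in the other P60 libraries and 9.56% to 13.6% at P1. Clusters of each age were grouped into 5 classes: 5809 fibroblasts at P1 and 7853 at P60, 3552 and 419 Schwann cells, 1049 and 1388 immune cells, 725 and 1804 endothelial cells, and 600 and 850 mural cells (smooth muscle cells and pericytes). The P60 Schwann cells were 89, 127 and 203 by library. Of 12 Schwann markers 11 at P1 and all 12 at P60 were highest in the Schwann class, and the 9 fibroblast markers were highest in the fibroblast class at both ages.

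The start sites of the genes are shown first for the AP-1 pair that was found together most often, Fos and Junb, for Fosb, whose levels varied most between P60 libraries, and for Klf2. Each sequence is the 250 bases before the RefSeq start site in GRCm38.p6, read 5′ to 3′ on the strand of the gene: Fos at chr12:85473640-85473889 (plus strand), Fosb at chr7:19310046-19310295 (minus strand), Junb at chr8:84978749-84978998 (minus strand) and Klf2 at chr8:72318812-72319061 (plus strand). Capitals mark TGACG, the core of the cAMP response element, and TATAAA, the TATA box.
Fos: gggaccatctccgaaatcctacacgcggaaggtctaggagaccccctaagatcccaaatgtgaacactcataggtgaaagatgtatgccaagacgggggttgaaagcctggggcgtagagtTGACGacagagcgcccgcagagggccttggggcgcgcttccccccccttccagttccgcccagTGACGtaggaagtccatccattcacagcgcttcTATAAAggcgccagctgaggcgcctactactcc
Fosb: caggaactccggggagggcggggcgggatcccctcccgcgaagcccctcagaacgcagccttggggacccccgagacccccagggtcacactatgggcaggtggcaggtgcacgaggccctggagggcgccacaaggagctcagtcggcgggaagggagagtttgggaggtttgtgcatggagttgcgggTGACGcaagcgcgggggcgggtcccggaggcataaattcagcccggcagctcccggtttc
Junb: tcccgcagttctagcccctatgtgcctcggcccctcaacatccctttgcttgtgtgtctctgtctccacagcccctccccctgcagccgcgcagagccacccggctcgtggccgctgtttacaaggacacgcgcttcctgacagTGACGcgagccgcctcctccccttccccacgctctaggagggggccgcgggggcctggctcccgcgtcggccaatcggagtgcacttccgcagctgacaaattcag
Klf2: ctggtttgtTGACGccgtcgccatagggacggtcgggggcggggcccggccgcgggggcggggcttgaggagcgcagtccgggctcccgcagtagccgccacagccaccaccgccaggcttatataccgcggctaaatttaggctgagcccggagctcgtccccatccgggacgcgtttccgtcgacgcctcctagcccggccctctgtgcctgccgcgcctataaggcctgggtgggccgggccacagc

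Hspa1a has a near-identical neighbour on chromosome 17, Hspa1b, and their windows are shown together because reads of the copies may have been split between them. The Hspa1a window lies at chr17:34972157-34972406 and the Hspa1b window at chr17:34959239-34959488, both on the minus strand. They were identical at 247 of 250 bases. Capitals mark GAANNTTC, the paired unit of the heat shock element.
Hspa1a: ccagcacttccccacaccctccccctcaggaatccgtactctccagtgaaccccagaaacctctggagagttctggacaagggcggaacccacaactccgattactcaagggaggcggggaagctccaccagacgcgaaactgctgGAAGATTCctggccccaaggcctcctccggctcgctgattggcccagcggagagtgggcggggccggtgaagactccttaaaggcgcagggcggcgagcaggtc
Hspa1b: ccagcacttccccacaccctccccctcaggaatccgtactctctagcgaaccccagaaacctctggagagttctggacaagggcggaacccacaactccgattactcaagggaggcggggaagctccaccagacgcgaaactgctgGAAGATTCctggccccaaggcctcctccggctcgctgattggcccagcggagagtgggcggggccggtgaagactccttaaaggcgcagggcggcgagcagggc

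Windows of 300 bases, from 250 before to 50 after the start site, were found for 8 of the 10 genes (not for Egr1 and Ier2) and were searched on both strands. TGACG was found in 6 of 8 windows (Fos, Fosb, Junb, Atf3, Klf2 and Klf4) against 20.8% of 32851 mouse promoters, and GGGCGG, the Sp1 box, in 6 of 8 against 35.7%. Fos held TGACG at -129 and -66 from its start site, Junb at -106, Fosb at -60 and Atf3 at -7. The full cAMP response element TGACGTCA (1.79% of all promoters, and it contains TGACG), the AP-1 site TGAGTCA (5.2%) and the serum response element (1.63%) had no match in any of the 8. Bases further upstream were not searched, so the lack of a match does not mean that a gene lacks the element. GAANNTTC was found in 1 of them, at -104 in Hspa1a, against 7.86% of all promoters. TATAAA was found in Fos at -33 and in Junb at 1, at the RefSeq start site itself, against 13.6%. A match is a description of letters in a window and says nothing of binding. The RefSeq window of Jund lies upstream of the start of the annotated gene used for coordinates. In that annotation (GENCODE M21 of GRCm38), Fos (chr12:85473890-85477273), Fosb (chr7:19302696-19310051), Klf2 (chr8:72319033-72321656), Klf4 (chr4:55527143-55532466) and Ier2 (chr8:84661331-84662852) overlap no other gene. Junb (chr8:84974484-84978718) overlaps Prdx2 on the other strand, Jund (chr8:70698949-70700616) Gm11175, Atf3 (chr1:191170296-191218039) Gm24748 and Hspa1a (chr17:34969190-34972156) Gm20481, and whether the counting used the strand is not given in the sources used here.

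The levels below are in CPM, the usual scaling of the UMIs of a gene to the total of all UMIs, here of the cells of 1 class in 1 library. Genes were compared between ages with edgeR's quasi-likelihood test on the summed counts of the 3 libraries of each age, over all genes of a class, and a gene is called higher or lower where its Benjamini-Hochberg adjusted p is under 0.05. Changes are log2(P60/P1) with the standard error of the fit. In bulk sums of this kind fewer cells with the transcript and less transcript per cell cannot be told apart, and cell shares are given further on.

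At P1 the levels of these genes were lowest in Schwann cells for Fosb, Junb, Jund, Egr1, Atf3, Klf2 and Ier2, and at P60 Schwann cells were the highest class for Fos and Fosb and the next to highest for Junb, Jund and Ier2. Immune cells were the highest class for 7 of the 10 at P1 (Fos, Fosb, Junb, Egr1, Atf3, Ier2 and Hspa1a) and for 7 at P60 (Junb, Jund, Egr1, Atf3, Klf2, Ier2 and Hspa1a). Neighbours in these orders often did not differ beyond the spread of their libraries: at P60 the libraries of Schwann and immune cells overlapped for Fos, Fosb, Junb and Jund. Fibroblasts were the lowest class at P60 for Fos, Junb, Egr1, Atf3, Klf2, Ier2 and Hspa1a, although for Fos, Egr1, Atf3, Klf2 and Hspa1a their libraries overlapped those of the class above. The plot of levels by class and library shows all 10 genes.

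**Figure D1:**
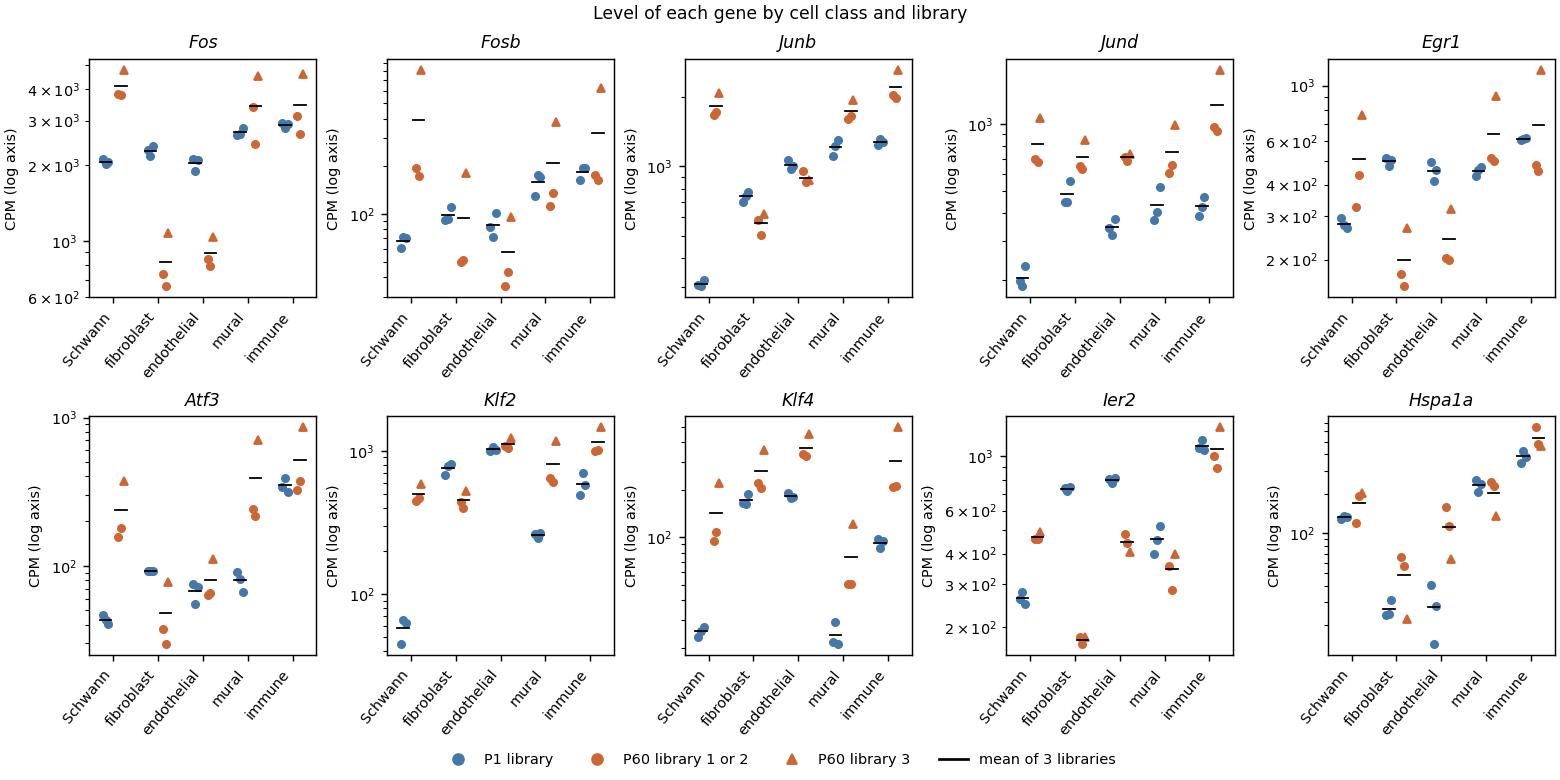
Level of each of the 10 genes (CPM, log axis) in the 5 cell classes; each point is 1 library, P1 and P60 in different colours and P60 replicate 3 as a triangle, and lines are means of 3 libraries. In Schwann cells the P60 points lie above the P1 points for every gene except Hspa1a, while in fibroblasts Fos, Egr1, Klf2 and Ier2 lie lower at P60; P60 replicate 3 is the highest of the 3 P60 points in 44 of 50 gene and class combinations.

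Fos, the AP-1 subunit with the fastest induction, moved in opposite directions in Schwann cells and fibroblasts. In Schwann cells it was at 2114, 2016 and 2047 CPM in the P1 libraries and at 3831, 3791 and 4766 CPM in the P60 libraries, so that every P60 library was above every P1 library. The log2 change was 0.95 (SE 0.16, edgeR adjusted p = 0.00039). In fibroblasts it was at 2289, 2179 and 2377 CPM at P1 and at 736, 659 and 1077 CPM at P60, again without overlap, a log2 change of -1.45 (SE 0.16, edgeR adjusted p = 4.6e-05). Endothelial cells followed fibroblasts, from 2104, 1893 and 2093 CPM to 850, 793 and 1036 CPM (log2 change -1.17, SE 0.12, edgeR adjusted p = 9.9e-06). In mural cells the P1 libraries (2639, 2642 and 2792 CPM) lay inside the range of the P60 libraries (3391, 2414 and 4499 CPM), and in immune cells 2944, 2802 and 2904 CPM at P1 lay inside 3129, 2647 and 4605 CPM at P60. The difference passed the test in neither class (log2 0.49 and 0.32, edgeR adjusted p = 0.11 and 0.13).

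Fosb encodes another Fos family subunit, whose truncated product is long-lived. It was at 61, 71.4 and 70.5 CPM in P1 Schwann cells and at 196, 174 and 814 CPM at P60, where replicate 3 held several times the level of the other libraries. The log2 change was 2.53 (SE 0.41, edgeR adjusted p = 0.00027) with all libraries and 1.35 (edgeR adjusted p = 3.4e-07) without P60 replicate 3. In the other classes the size of the change turned on that library, and in mural and immune cells its sign did too. Fibroblasts had 91.7, 93.4 and 111 CPM at P1 and 49.5, 50.8 and 182 CPM at P60, a log2 change of -0.07 that was not called, and of -0.93 (edgeR adjusted p = 2.5e-07) without P60 replicate 3. Endothelial cells went from 82.3, 71.9 and 102 CPM to 34.8, 42.7 and 95.5 CPM (log2 -0.56, edgeR adjusted p = 0.16), with a log2 change of -1.09 (edgeR adjusted p = 2.2e-05) without that library. Mural cells (112, 136 and 384 CPM at P60) and immune cells (176, 165 and 628 CPM) showed the same single high library, and their log2 changes of 0.60 and 0.85, neither called, became -0.30 and -0.03 without it.

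Junb, an AP-1 subunit that pairs with Fos, differed between ages in Schwann cells with little spread between libraries. It was at 306, 301 and 320 CPM at P1 and at 1663, 1723 and 2082 CPM at P60, without overlap, a ratio of means of 5.90 and a log2 change of 2.51 (SE 0.15, edgeR adjusted p = 3.3e-08). Mural cells (1102, 1229 and 1304 CPM at P1; 1609, 1644 and 1944 CPM at P60) and immune cells (1232, 1312 and 1278 CPM; 2037, 1971 and 2614 CPM) were also higher at P60, by log2 0.64 (edgeR adjusted p = 0.006) and 0.85 (edgeR adjusted p = 0.00021). In fibroblasts as a class it fell from 701, 743 and 772 CPM to 587, 502 and 620 CPM (log2 -0.35, edgeR adjusted p = 0.013). Of the subtypes named below, epineurial cells were not called (log2 -0.11, edgeR adjusted p = 0.37, and -0.14, 0.03 without P60 replicate 3). Endoneurial cells were called higher (log2 0.92), and perineurial cells, named at P60 only, had 254 to 259 CPM. The part of the subtype mixture in the fall of the class was not tested. Endothelial libraries stayed between 850 and 1065 CPM at the 2 ages, and the difference was not called (log2 -0.17, edgeR adjusted p = 0.23).

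Jund, the Jun family gene that is usually expressed without a stimulus, was higher at P60 in all 5 classes. Schwann cells went from 197, 187 and 232 CPM to 696, 674 and 1071 CPM (log2 1.94, SE 0.18, edgeR adjusted p = 2.4e-06). In immune cells the libraries had 389, 426 and 471 CPM at P1 and 974, 930 and 1751 CPM at P60 (log2 1.56). Fibroblasts changed by log2 0.58, mural cells by 0.94 and endothelial cells by 1.05 (edgeR adjusted p = 0.0042, 0.0085 and 1.3e-05), and the mural change was 0.61 (edgeR adjusted p = 0.0002) without P60 replicate 3. No class had overlapping libraries of the 2 ages.

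Atf3, the injury and stress factor, was at 46.4, 42.8 and 40.4 CPM in P1 Schwann cells and at 156, 179 and 374 CPM at P60 (log2 2.44, SE 0.24, edgeR adjusted p = 4.8e-06). Mural cells had 91, 81 and 67 CPM at P1 and 243, 215 and 709 CPM at P60 (log2 2.47, SE 0.45, edgeR adjusted p = 0.0018). Both differences were smaller without P60 replicate 3, at log2 1.87 and 1.59, and both were still called. The mural class holds smooth muscle cells and pericytes, and Atf3 in its clusters is given further on. In fibroblasts Atf3 fell from 92.4, 91.6 and 92.3 CPM to 37.2, 29.7 and 77.3 CPM (log2 -0.93, edgeR adjusted p = 0.018), and by more without P60 replicate 3 (log2 -1.42). Immune cells had 338, 393 and 312 CPM at P1 and 324, 372 and 859 CPM at P60, so that only the third library was above the P1 range, and the difference was not called (log2 0.63, edgeR adjusted p = 0.099).

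Egr1, a zinc finger factor of the same fast response, divided the classes as Fos did. Schwann cells had 295, 276 and 267 CPM at P1 and 325, 436 and 760 CPM at P60 (log2 0.83, SE 0.22, edgeR adjusted p = 0.0094), and log2 0.37 (edgeR adjusted p = 0.012) without P60 replicate 3. Fibroblasts fell from 510, 476 and 504 CPM to 175, 156 and 269 CPM (log2 -1.29, edgeR adjusted p = 0.00018), and endothelial cells from 495, 412 and 459 CPM to 203, 200 and 320 CPM (log2 -0.90, edgeR adjusted p = 0.0012). In immune cells 2 P60 libraries (481 and 452 CPM) lay below and the third (1156 CPM) above the P1 libraries at 602, 612 and 617 CPM. The log2 change there was 0.24 and not called, and -0.30 (edgeR adjusted p = 0.0036) without P60 replicate 3.

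Ier2 fell most in fibroblasts, from 739, 722 and 751 CPM to 182, 171 and 182 CPM, with little spread in either age (log2 -2.02, SE 0.09, edgeR adjusted p = 1.7e-07). Endothelial cells fell from 808, 776 and 817 CPM to 482, 442 and 407 CPM (log2 -0.83, edgeR adjusted p = 9.4e-05). Schwann cells rose from 261, 278 and 249 CPM to 460, 457 and 489 CPM (log2 0.78, SE 0.12, edgeR adjusted p = 0.00024). In both classes P60 replicate 3 was close to the other P60 libraries. Mural libraries had 400, 456 and 517 CPM at P1 and 357, 283 and 398 CPM at P60, log2 -0.28 and not called (edgeR adjusted p = 0.24), and immune libraries overlapped at 1083, 1160 and 1060 CPM and 1006, 892 and 1313 CPM (log2 0.02, edgeR adjusted p = 0.93).

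Klf2, a flow-induced factor of endothelium, was at 997, 1066 and 1015 CPM in P1 endothelial cells and at 1083, 1049 and 1218 CPM at P60, overlapping and not called (log2 0.14, edgeR adjusted p = 0.32). In Schwann cells it rose from 45, 65.6 and 62.5 CPM to 445, 469 and 590 CPM (log2 3.07, SE 0.17, edgeR adjusted p = 2e-08), the largest log2 change of the 10 genes in any of the 5 classes. Mural cells rose from 263, 247 and 266 CPM to 641, 603 and 1168 CPM (log2 1.78, edgeR adjusted p = 0.0005) and immune cells from 490, 699 and 580 CPM to 1000, 1019 and 1458 CPM (log2 1.03, edgeR adjusted p = 0.00053). The mural clusters differed in Klf2 and are given further on. Fibroblasts fell from 677, 779 and 814 CPM to 442, 402 and 527 CPM (log2 -0.70, edgeR adjusted p = 0.00058).

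Klf4, its close relative, was highest in endothelium at both ages and, with Jund, was one of the 2 genes that rose in all 5 classes. Endothelial cells went from 190, 178 and 181 CPM to 335, 325 and 449 CPM (log2 1.03, SE 0.13, edgeR adjusted p = 8.6e-05), and Schwann cells from 23.4, 25.6 and 27.1 CPM to 95.1, 108 and 222 CPM (log2 2.48, SE 0.24, edgeR adjusted p = 3.9e-06). The changes in mural cells, immune cells and fibroblasts were log2 1.83, 1.78 and 0.62 (edgeR adjusted p = 0.005, 0.00043 and 0.017). Without P60 replicate 3 they were smaller, at 1.14, 1.26 and 0.35 (edgeR adjusted p = 0.00053, 1.8e-07 and 0.0003), and the change in Schwann cells was 1.91, all still called. In the fibroblast subtypes named below, Klf4 was called neither in epineurial (log2 0.03, edgeR adjusted p = 0.92) nor in endoneurial cells (0.53, 0.074). Without P60 replicate 3 it was called lower in epineurial cells (log2 -0.27, edgeR adjusted p = 0.0066). Epineurial cells were 23.3% of P1 and 57.7% of P60 fibroblasts, and the part of that mixture in the class change was not tested. Mural cells had the lowest level at both ages, 21.1 to 28.9 CPM at P1 and 50.5 to 122 CPM at P60, with libraries that overlapped those of Schwann cells.

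Hspa1a, the inducible chaperone, did not follow the transcription factors. In Schwann cells it was at 129, 136 and 133 CPM at P1 and at 120, 193 and 203 CPM at P60, overlapping and not called (log2 0.35, SE 0.16, edgeR adjusted p = 0.1), and mural cells at 255, 207 and 237 CPM and 245, 230 and 136 CPM were not called either (log2 -0.11). It rose in endothelial cells, from 40.3, 14.4 and 27.9 CPM to 160, 113 and 63.5 CPM (log2 2.05, SE 0.36, edgeR adjusted p = 0.00074), and in immune cells, from 344, 428 and 385 CPM to 644, 480 and 465 CPM (log2 0.52, edgeR adjusted p = 0.02). Fibroblasts had 23.7, 24.5 and 30.9 CPM at P1 and 66.5, 56.8 and 22.4 CPM at P60, with the third library below all P1 libraries. That difference was called by edgeR (log2 0.92, adjusted p = 0.04) and not by DESeq2 (log2 0.91, adjusted p = 0.1). Hspa1a was the lowest of the P60 libraries in replicate 3 in the fibroblast, endothelial, mural and immune classes. Among the other genes this held only for Ier2 in endothelial cells. Its copy Hspa1b was at 2.57 to 69.6 CPM in the 5 classes. In P60 replicate 3 Hspa1b was the highest of the P60 libraries in Schwann (16.4 CPM), mural (14.7 CPM) and immune cells (69.6 CPM). It was between the others in fibroblasts (10.6 CPM) and the lowest in endothelial cells (12.5 CPM).

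**Figure D2:**
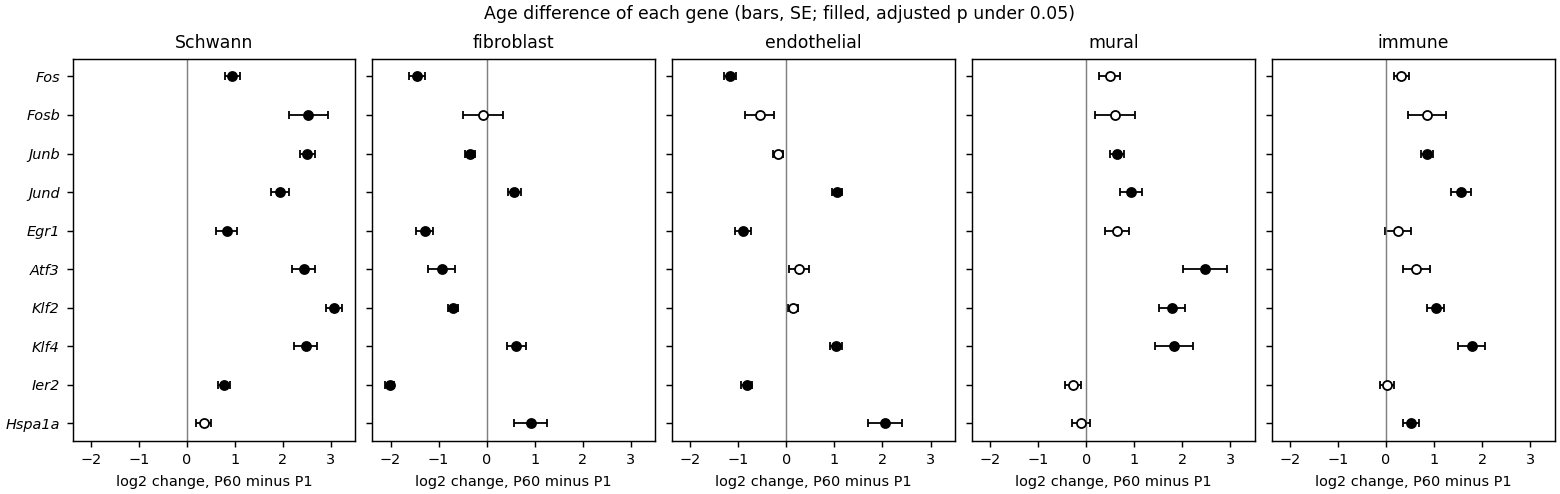
Log2 change from P1 to P60 of each gene in the 5 cell classes (points, with bars of 1 SE; filled points have an edgeR adjusted p under 0.05). In Schwann cells all 10 points lie above 0 and 9 are filled, while in fibroblasts 6 filled points lie below 0, from -2.02 for Ier2 to -0.35 for Junb.

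By class, 9 of the 10 genes were called higher at P60 in Schwann cells and 0 lower, where 40.0% of the 11748 genes tested were called, 21.2% higher and 18.8% lower. The median log2 change was 2.19, against 0.02 over all genes. The gene not called was Hspa1a. In fibroblasts 3 were called higher (Jund, Klf4 and Hspa1a) and 6 lower, against 30.9% and 28.6% of 14696 genes (59.5% called in all), with a median of -0.53 against 0.03. In endothelial cells 3 were higher (Jund, Klf4 and Hspa1a) and 3 lower (Fos, Egr1 and Ier2), against 21.1% and 19.1% of 10876 genes (40.2% in all). Mural cells had 5 called higher (Junb, Jund, Atf3, Klf2 and Klf4) and 0 lower, against 17.8% and 15.4% of 8412 genes (33.2% in all), and immune cells 5 higher (Junb, Jund, Klf2, Klf4 and Hspa1a) and 0 lower, against 20.3% and 17.2% of 10264 genes (37.5% in all). In Schwann, mural and immune cells 0 genes were lower by edgeR also at an unadjusted p under 0.05, and 0 by DESeq2, although without P60 replicate 3 edgeR called Ier2 lower in mural cells (log2 -0.47) and Egr1 lower in immune cells. The counts of 3 of 10 in fibroblasts and endothelium are thus near the background in the upward direction. The 3 libraries of each age did not overlap for 9 of 10 genes in Schwann cells (52.2% of all genes tested), 8 in fibroblasts (68.3%), 7 in endothelial cells (52.6%), 5 in immune cells (52.0%) and 7 in mural cells (47.6%).

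The difference between classes was tested itself, in 1 fit over the summed counts of all 5 classes with the library as a block, as the age difference of a class minus that of fibroblasts. It was called positive for 9 of 10 genes in Schwann cells, where 14.2% of 13939 genes were called positive, 13.4% negative and 27.6% in all, with Klf2 at log2 3.74, Atf3 at 3.28 and Junb at 2.83. It was also called positive for 9 of 10 in immune cells (16.4% of all genes positive, 14.2% negative, 30.6% in all), for 8 of 10 in endothelial cells (15.9%, 13.6% and 29.5%) and for 8 of 10 in mural cells (11.0% positive and 20.9% in all). The single negative call was Hspa1a in mural cells, at -0.93, where 9.81% of all genes were called negative, and DESeq2 called 0 there. Fibroblasts at the 2 ages are not the same mixture, since perineurial cells were 31.3% of P60 fibroblasts. At P1 no cluster met the marker rule for them, while 3 fibroblast clusters with 2453 of the 5809 cells were given no subtype, and whether these hold perineurial cells was not tested. The subtypes are given below.

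P60 replicate 3 was the highest of the P60 libraries in 44 of the 50 gene and class combinations and P60 replicate 2 in 0. In that library the 10 genes lay at a median of log2 0.78 above the other P60 libraries in immune cells, 0.75 in mural cells, 0.53 in Schwann cells, 0.52 in fibroblasts and 0.26 in endothelial cells, whereas the medians over all genes were 0.05, -0.17, 0.07, 0.06 and 0.03. More than 2-fold differences from the other P60 libraries were found for 4 genes in Schwann and 4 in immune cells, all higher, where 24.3% and 5.79% of all genes differed that far. The lower UMI depth and the higher mitochondrial share of this library moved with these levels, and their part was not tested. Without it, 9 genes were still called higher and 0 lower in Schwann cells (14.5% and 16.4% of all genes, median log2 1.50). The calls were 5 higher and 1 lower in mural cells (18.6% and 17.3%) and 5 higher and 1 lower in immune cells (20.1% and 18.5%). They were 3 higher and 4 lower in endothelial cells (24.0% and 23.1%), and 3 higher and 7 lower in fibroblasts (35.6% and 35.1%).

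Schwann cells at P60 held more RNA of other classes than at P1. The 9 fibroblast markers were at a median of 12.3% of their fibroblast level in P1 Schwann cells and 32.9% in P60 Schwann cells, the 9 endothelial markers at 0.523% and 3.19% of their endothelial level, and the 11 immune markers at 0.221% and 1.33%. At P60 the level of Fos in Schwann cells was 501% of that in fibroblasts, Atf3 492%, Fosb 420%, Hspa1a 354%, Junb 320%, Ier2 263% and Egr1 254%, all above the 32.9% at which the fibroblast markers stood. Jund (114%), Klf2 (110%) and Klf4 (54.4%) were nearer to it. At P1, Klf2 in Schwann cells was at 7.63% of its fibroblast level, below the fibroblast markers, and Klf4 was at 14.8%, so those P1 levels cannot be told from carried RNA. Klf2 stood at 44.9% of its endothelial level in P60 Schwann cells.

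A further fit left out the cells with many UMIs of markers of another class, which kept 68, 85 and 157 Schwann cells at P60 and 814, 1008 and 935 at P1. The fibroblast markers in Schwann cells then stood at 7.28% at P1 and 10.2% at P60, a fall that the way of choosing cells brings with it. The log2 changes in these Schwann cells were no smaller, at 4.20 for Klf2, 3.29 for Fosb, 2.98 for Junb, 2.94 for Atf3, 2.51 for Klf4, 2.09 for Jund, 1.30 for Fos, 1.22 for Egr1 and 1.20 for Ier2. Hspa1a, not called with all Schwann cells, was called with these (log2 0.64, edgeR adjusted p = 0.0025).

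Fibroblast subtypes were named by markers of the endoneurium (the space around axons), the epineurium (the outer sheath) and the perineurium (the sheath of each fascicle), and differences between subtypes were not tested. In epineurial cells 5 genes were called lower and 2 higher (20.7% and 22.7% of 11999 genes, 43.4% in all), with Ier2 at log2 -1.56, Fos at -1.51, Atf3 at -1.38, Egr1 at -0.94 and Klf2 at -0.52. Endoneurial cells had 4 higher and 2 lower (21.5% and 22.9% of 11213 genes, 44.4% in all). The libraries of the ages did not overlap for 5 genes in each subtype, against 56.1% of all genes in epineurial and 55.8% in endoneurial cells. In the latter Junb rose from 810, 868 and 868 CPM to 1309, 1427 and 1770 CPM (log2 0.92, edgeR adjusted p = 2.2e-05) and Klf2 fell from 687, 823 and 806 CPM to 237, 243 and 316 CPM (log2 -1.44, edgeR adjusted p = 6.5e-07). Ier2 fell there as well, from 940, 934 and 901 CPM to 324, 301 and 627 CPM (log2 -1.06, edgeR adjusted p = 0.00067). Fos was at 2340, 2301 and 2352 CPM in P1 endoneurial cells and 1495, 1638 and 2470 CPM at P60, where the third library reached above the P1 range, and was not called (log2 -0.22, edgeR adjusted p = 0.25). Perineurial cells, named at P60 only, had Ier2 at 76.9, 88.1 and 70.8 CPM, Junb at 259, 256 and 254 CPM and Atf3 at 17.5, 14 and 30.7 CPM. Without P60 replicate 3 the calls were 2 higher and 8 lower in epineurial cells (28.7% and 27.5% of all genes). They were 4 higher and 5 lower in endoneurial cells (22.0% and 22.5%).

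Since deeper cells show more genes, each cell was thinned at random to 1500 UMIs, which left out no P1 cell and 110 P60 cells, all in replicate 3. In Schwann cells the share of cells with a UMI rose from 32.1% to 66% for Junb (means of 3 libraries), from 24% to 60.3% for Jund, from 7.06% to 31.9% for Klf2 and from 5.91% to 21.3% for Atf3, without overlap of libraries. Cells with Fos made up 73.4% ± 1.22 (SD, n = 3) at P1 and 75% ± 4.6 at P60, so its higher level at P60 was not matched by a larger share of cells. In fibroblasts the share of cells with Fos was 73.4% at P1 and 41.9% at P60, with Ier2 46.5% and 17.3%, and with Egr1 43.9% and 20.2%. Immune cells had the largest shares at both ages for Fos (85.5% and 78.1%) and Junb (74.5% and 76.2%). An exact two-sided permutation test of 3 libraries against 3 cannot give a p below 0.1, which each gene without overlap reached, and after adjustment over the 50 gene and class combinations that p was 0.161. With all UMIs of each cell the shares in Schwann cells were 57.4% and 76.1% for Junb and 87.9% and 79.5% for Fos. No class is known to lack these genes, so the share that free RNA gives could not be read from one.

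Cells with several of the genes were counted next. At P1, 40% ± 1.29 of thinned Schwann cells had UMIs of 3 or more of the 10 genes, and at P60 68.4% ± 8.56 (SD, n = 3 libraries at each age, exact permutation p = 0.1, the smallest possible). Fibroblasts went the other way, from 67.1% ± 3.36 to 43.4% ± 5.34, as did endothelial cells, from 68.4% ± 1.04 to 53.4% ± 5.92 (exact permutation p = 0.1 for each). Mural cells (68.6% and 67.2%) and immune cells (84.3% and 83.1%) had overlapping libraries (exact permutation p = 0.9 and 0.6). Without thinning the Schwann shares were 75.4% and 78.8% and overlapped, while those of fibroblasts (89.3% and 77.4%) and endothelial cells (91.9% and 83.3%) did not. Among Schwann cells with under 10% mitochondrial UMIs the thinned shares were 37.7%, 37.2% and 38.6% at P1 and 60.9%, 65.8% and 78.7% at P60.

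**Figure D3:**
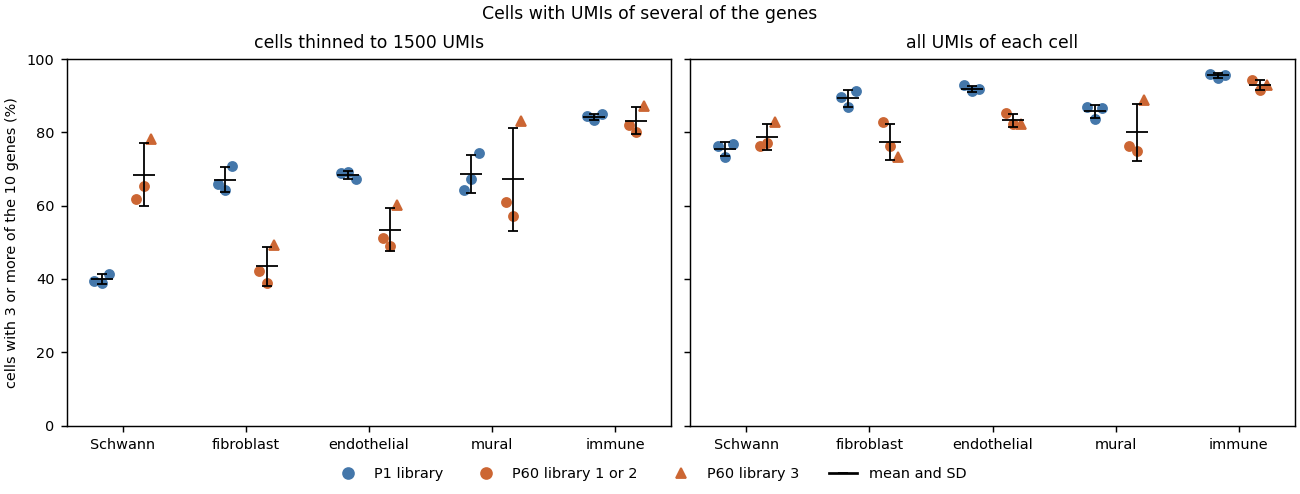
Percent of cells with UMIs of 3 or more of the 10 genes, by class and library, in cells thinned to 1500 UMIs (left) and with all UMIs (right); bars are the mean and SD of 3 libraries. The Schwann points rise from 39% to 41.4% at P1 to higher values in all 3 P60 libraries after thinning, and fibroblast and endothelial points fall in both panels.

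Clusters of a class differed among themselves. Of the Schwann clusters of P1, the 2 led by Mal had 3 or more of the genes in 58.2% and 49.3% of thinned cells, and the cluster led by Mbp, which encodes myelin basic protein, in 21.2%. The single Schwann cluster of P60 had 70.5%. Fos was found in 68.7% to 82.8% of cells of these 3 P1 clusters, while Ier2 ranged from 13% to 43.3% and Egr1 from 19.4% to 47.8%. In P60 mural cells the cluster led by Myh11, a smooth muscle myosin, had 81.4% and the cluster led by Rgs5, a pericyte gene, 49.6%, and Atf3 was found in 37.8% and 5% of their cells. The Myh11 cluster made up 60.4%, 51.6% and 78.6% of the mural cells of the 3 P60 libraries. At P1 the mural cells formed a single cluster, with Atf3 in 7.5%, Klf2 in 18.5% and Junb in 65.3% of cells. At P60 Klf2 was in 56.4% and 11.4% and Junb in 76.4% and 49.3% of the Myh11 and Rgs5 clusters. Jund and Klf4 were in more cells of both P60 clusters than at P1. The mural mixture may differ between ages, and its part in the mural age differences was not tested. In P60 endothelium the cluster led by Ccl21a had 66.5% and the cluster led by Cldn5 43.4%, whereas their shares of cells with Klf2 were close, at 64.3% and 61.2%. Fos was in 52.6% and 24.5% of their cells. The endothelial cells of P1 formed a single cluster, with 68.4% and with Fos in 65.8% of cells. The endothelial mixture may differ between ages, and its part in the endothelial age differences was not tested. Several of the 10 genes were among the genes on which the cells were clustered (7 at P1 and 9 at P60), so these differences are descriptions, and clustering without them and the stress lists left the count in Schwann cells at 9 called higher.

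Pairs of the genes were found in the same thinned cells more often than their separate shares would give. For each pair and library a log2 odds ratio of joint detection was computed over the cells of a class, with genes found in at least 10 cells of every library. The median over pairs was 1.19 ± 0.22 at P1 and 1.41 ± 0.26 at P60 in Schwann cells, 1.10 ± 0.03 and 1.00 ± 0.15 in fibroblasts, 0.80 ± 0.13 and 1.17 ± 0.31 in immune cells, 0.95 ± 0.08 and 1.24 ± 0.03 in endothelial cells, and 1.17 ± 0.38 and 1.33 ± 0.26 in mural cells (SD, n = 3). In endothelial cells alone the libraries of the ages did not overlap (exact permutation p = 0.1), and without thinning that difference turned to -0.21. Pairs of reference genes measured in the same way had mean medians of -0.02 to 0.31, with single P60 Schwann libraries from -0.34 to 0.85. The reference in Schwann cells rests on 6 pairs, against 15 to 36 in the other classes. Every library was above 0 for 26 of 36 pairs in Schwann cells, 42 of 45 in fibroblasts, 35 of 45 in immune cells, 30 of 36 in endothelial cells and 25 of 36 in mural cells.

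Fos with Junb was the pair with the highest median over libraries in Schwann cells (2.96), fibroblasts (2.83) and mural cells (2.99), Junb with Egr1 in endothelial cells (3.18) and Fos with Egr1 in immune cells (2.45). In Schwann cells Fos with Junb was at 2.44, 2.40 and 2.27 in the P1 libraries and 3.47, 4.42 and 3.84 in the P60 libraries, higher in every P60 library, whereas in fibroblasts it was at 3.18, 3.17 and 3.24 at P1 and 2.24, 2.49 and 2.40 at P60, lower in every one. Pairs with Hspa1a were the weakest, with a median of 0.55 over 34 pair and class combinations, against 2.03 for pairs with Fos. Atf3 with Hspa1a in mural cells was at 0.70, -1.02 and 0.68 at P1 and at -1.55, -0.64 and -0.50 at P60. Over the mural class at P60 they were thus found together less often than their separate shares would give. The class pools clusters that differed in both genes. Atf3 was in 37.8% of Myh11 and 5% of Rgs5 cluster cells at P60, and Hspa1a in 14% and 29.3%. The part of this mixture in the odds ratio of the pair was not tested. Klf2 with Klf4, the flow pair, was at 0.66 to 1.61 in the 6 endothelial libraries and at 0.85 to 1.69 in fibroblasts. Taken inside each cluster, so that differences between clusters do not enter, the library medians were still 0.90 to 1.64 in Schwann cells, 0.76 to 1.14 in fibroblasts, 0.72 to 1.37 in immune, 0.86 to 1.39 in endothelial and 0.72 to 1.49 in mural cells.

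**Figure D4:**
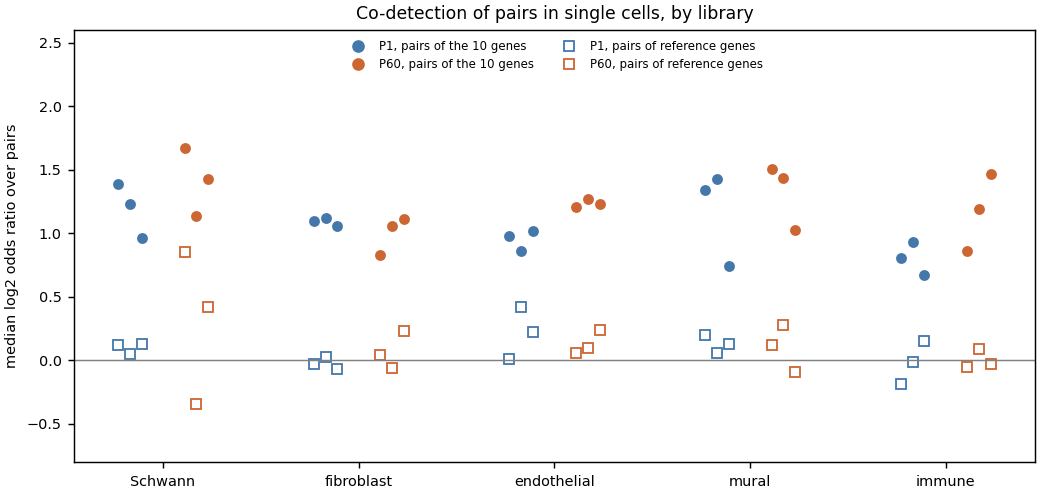
Median over pairs of the log2 odds ratio of joint detection in thinned cells, by class; each point is 1 library, filled for pairs of the 10 genes and open for pairs of reference genes. Filled points lie above open points of the same library throughout, and open points of P60 Schwann cells, which rest on 6 pairs against 15 to 36 in the other classes, run from -0.34 to 0.85.

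Other immediate early genes, 30 in the list, were counted beside the shares of all genes. In Schwann cells 14 of 27 tested were higher at P60 and 1 lower (21.2% and 18.8% of all genes, median log2 1.11 against 0.02), and in mural cells 10 of 25 higher and 3 lower (17.8% and 15.4%). In fibroblasts 4 of 28 were higher and 17 lower (30.9% and 28.6%, median -0.68 against 0.03), and in endothelial cells 5 of 27 higher and 12 lower (21.1% and 19.1%, median -0.51 against 0.01). The counts in immune cells, 8 of 28 higher and 6 lower, were near the shares of all genes (20.3% and 17.2%). Jun, the founding AP-1 partner of Fos, rose in Schwann cells from 729, 756 and 787 CPM to 1015, 1118 and 1726 CPM (log2 0.72, edgeR adjusted p = 0.0071) and fell in fibroblasts from 917, 958 and 1021 CPM to 515, 454 and 636 CPM (log2 -0.83, edgeR adjusted p = 0.00027). Schwann cells also gained Gadd45b, a stress and DNA damage gene (log2 3.10, and 2.31 without P60 replicate 3), and Btg2, an antiproliferative gene (log2 2.35 and 1.90). Fibroblasts lost Egr2 (log2 -3.38) and Arc, which was at 0.27, 0 and 0.0843 CPM at P60, and gained Ptgs2, which encodes cyclooxygenase 2 (log2 2.90, and 1.98 without P60 replicate 3). All 3 gains were still called without that library. Endothelial cells lost Cyr61, a matrix protein gene induced by stretch (log2 -2.54), and Nr4a1, an orphan nuclear receptor gene (log2 -1.74).

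Heat shock genes, the family of Hspa1a, showed no common direction. Of the 18 in the list, 2 were higher and 7 lower in Schwann cells, 7 and 5 in fibroblasts, 2 and 4 in immune cells, 4 and 4 in endothelial cells, and 5 and 2 of 17 in mural cells, where the shares of all genes are those given above. Hspb1, which encodes the small heat shock protein HSP27, was higher at P60 in all 5 classes, by log2 4.20 in Schwann cells, 3.87 in immune cells, 3.60 in fibroblasts, 2.22 in endothelial cells and 2.21 in mural cells. Its level in Schwann cells was 12.6% of that in fibroblasts at P1 (6.94 against 54.9 CPM) and 19.9% at P60 (129 against 650 CPM), near or below the 12.3% and 32.9% at which the fibroblast markers stood there, so the Schwann levels cannot be told from carried RNA. Immune cells had only 4.93 CPM of Hspb1 at P1 and 69.9 CPM at P60. Fibroblast markers stood there at 7.43% and 8.06% of their fibroblast level, and the part of carried RNA in the immune levels was not tested. In Schwann cells Hsp90ab1, a constitutive HSP90, fell from 2076, 2248 and 2138 CPM to 1052, 1000 and 935 CPM (log2 -1.17). Hspa8, the constitutive relative of Hspa1a, fell by 0.78 on the log2 scale in endothelial and in immune cells.

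The genes whose levels ran most like those of most of the 10 over the 30 class and library values are given as a description, since the values share libraries and classes (Pearson's r on log2(CPM + 1), 7552 genes). Fos ran most like Nr4a1 (0.87) and Egr1 (0.86), Fosb like Egr1 (0.82), Junb like Btg2 (0.87), Jund like Fam129a (0.82), Atf3 like Nfkbiz (0.86), Klf2 like Jmjd1c (0.86), Klf4 like Tgfbr2 (0.93) and Ier2 like Wsb1 (0.90). Among the 10 themselves r was 0.86 between Fos and Egr1, 0.82 between Junb and Atf3 and 0.78 between Klf2 and Klf4, but 0.01 between Fos and Klf2 and -0.32 between Fos and Klf4.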

How the data were processed

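Single cells of the mouse sciatic nerve were counted in 3 libraries at P1 and 3 at P60. The authors deposited raw UMI counts per gene and barcode for each library, with no normalization. The submitters' processing notes name Cell Ranger 2.0.2 and GRCm38.p5, while the study's methods name a human build; the gene identifiers are those of mouse, and the treatment of reads that fit several genes is not given in the sources used here. Of 24510 barcodes, the 24337 with 500 to 5000 genes were kept by the limits the study states, which is somewhat more cells than its own lists hold. Replicate numbers are those of the labels, which give no date or batch.

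Cells of each age were clustered with Seurat 5.3.0 (R 4.3.3; 10 principal components, 30 neighbours, resolution 0.5 at P1 and 0.4 at P60) and clusters were named by marker lists. No doublet caller was run; 288 cells of P60 clusters with markers of both endothelium and mural cells were left out of the classes. Counts were summed per library and class and tested with edgeR 4.0.16 (quasi-likelihood, TMM, filterByExpr), P60 against P1, and over all classes with an interaction term and the library as a block. Alternatives were DESeq2 1.42.0, library size alone, no filter, the replicate number as a block, each library left out, and other sets of cells. For shares of cells and odds ratios (0.5 added to each count), cells were thinned to 1500 UMIs and libraries compared by exact two-sided permutation tests. Depth limits the P60 Schwann cells most, and intervals cover the spread of these libraries only. Scripts were tested on simulated data.

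Named genes were the 10 genes, the 3 genes of each list with the largest called change in each class, and the genes most like each; a few results of these and of single clusters are not reported here. The lists hold other immediate early genes, heat shock genes, unfolded protein and integrated stress genes, and flow genes of endothelium. The 10 genes and the lists were chosen with earlier results of these data known. The set without cells holding many UMIs of another class (at least 0.25 of that class's median marker share) and the pairs inside clusters were chosen after the data were seen, and Jun was named after its values were seen.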

Additional observations from a re-analysis of the deposited data

Results flagged for a closer look

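Each value here is the log2 age difference (P60 minus P1) of 1 gene in 1 class minus that in fibroblasts, and each passed the interaction test (edgeR adjusted p under 0.05), which is why it is listed.

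In Schwann cells the differences were 3.74 for Klf2, 3.28 for Atf3, 2.83 for Junb, 2.78 for Ier2, 2.49 for Fosb, 2.40 for Fos, 2.04 for Egr1, 1.76 for Klf4 and 1.31 for Jund. In these cells the fibroblast markers rose from 12.3% to 32.9% of their fibroblast level, and the part of that rise was not tested.

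In immune cells they were 2.06 for Ier2, 1.79 for Fos, 1.76 for Klf2, 1.57 for Atf3, 1.48 for Egr1, 1.23 for Junb, 1.13 for Klf4, 0.97 for Jund and 0.94 for Fosb. In mural cells they were 3.34 for Atf3, 2.46 for Klf2, 1.93 for Fos, 1.90 for Egr1, 1.76 for Ier2, 1.20 for Klf4, 1.01 for Junb and 0.65 for Fosb, with Hspa1a at -0.93. In endothelial cells they were smaller, 1.29 for Atf3, 1.25 for Ier2, 1.21 for Hspa1a, 0.90 for Klf2, 0.55 for Jund, 0.50 for Klf4, 0.44 for Egr1 and 0.36 for Fos.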

How the results depend on the processing

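Leaving out 1 library at a time gave 1 to 3 genes called higher in fibroblasts (3 with all libraries), 0 to 1 lower in mural and in immune cells (0), 2 to 5 lower in endoneurial cells (2), and 0 to 2 higher (2) and 4 to 8 lower (5) in epineurial cells. The interaction gave 5 to 9 positive calls in endothelial cells (8; 5 without P60 replicate 2) and 0 to 1 negative calls in each of Schwann, endothelial, immune (0) and mural cells (1). The log2 change ranged from -0.93 to 0.23 for Fosb in fibroblasts, -0.03 to 0.40 for Atf3 in endothelial cells, -0.30 to 0.91 for Fosb and -0.23 to 0.09 for Hspa1a in mural cells, -0.03 to 1.17 for Fosb, -0.30 to 0.47 for Egr1 and -0.13 to 0.12 for Ier2 in immune cells, and -1.01 to 0.14 for Fosb and -0.27 to 0.19 for Klf4 in epineurial cells. The lower ends came without P60 replicate 3, except for Hspa1a. Genes without overlap in shares of cells ranged from 4 to 8 in mural and in immune cells (8 without P60 replicate 3). Leaving out a library makes a lack of overlap easier for any gene. The share of all genes without overlap was not computed for shares of cells, here or without thinning below, so these counts cannot be set beside one. The age difference in cells with 3 or more genes ranged from -9.44 to 3.49 points in mural and -3.24 to 0.371 in immune cells, and that in the median log2 odds ratio from -0.19 to 0.36 in Schwann and -0.06 to 0.30 in mural cells.

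Without a filter on low counts, 8 genes were called higher in mural cells, 4 lower in endoneurial cells, and 1 interaction negative in each of Schwann, endothelial and immune cells. DESeq2 called 1 gene higher in epineurial cells and 0 interactions negative in mural cells. Cells under 10% mitochondrial UMIs gave 1 negative interaction in endothelial cells and a log2 change of 0.00 for Fosb in fibroblasts. For these fits, too, the shares of all genes called are not set beside the counts. Ier2 in immune cells was -0.04 with library size alone, -0.04 without the filter and -0.01 with the replicate number as a block, and Klf4 in epineurial cells -0.01 with that block.

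Co-detection depended on depth. Without thinning the mean log2 odds ratio was 1.74 in immune cells, 1.55 in fibroblasts, 1.58 in endothelial and 1.69 in mural cells, the age difference was -0.21 in endothelial and -0.03 in mural cells, and 7 genes had no overlap in immune cells. Thinning to 1000 UMIs gave an age difference of 0.04 in the odds ratio of fibroblasts, and of 3.37 and 2.57 points in cells with 3 or more genes in mural and immune cells; with 5 or more genes these were 8.22 and 7.15 points. Leaving out Jund gave a difference of -0.03 in Schwann cells and means of 1.22 in fibroblasts and 1.28 in endothelial cells, leaving out Hspa1a means of 1.57 in Schwann cells and 1.20 in fibroblasts, and pairs inside clusters a difference of -0.24 in mural cells. By medians, 5 of 10 genes kept the P60 order of classes. The cause of these changes was not tested.

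Same-numbered libraries of the 2 ages deviated together by r of -0.08 to 0.12, not always with their own number, so they share only a number; with it as a block 35.5% of genes were called in Schwann cells instead of 40.0%, and Fosb in endothelial (log2 -0.64) and Egr1 in mural cells (0.55) were called. The planned set without cells holding 3 markers of another class was not run, since it left almost no Schwann or mural cells.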

Other observations

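Genes of the unfolded protein and integrated stress responses, 13 in the list, were called higher and lower at P60 as follows, beside the shares of all genes: 3 and 1 of 11 tested in Schwann cells (21.2% and 18.8% of all genes), 6 and 3 of 12 in fibroblasts (30.9% and 28.6%), 2 and 1 of 9 in immune cells (20.3% and 17.2%), 4 and 3 of 11 in endothelial cells (21.1% and 19.1%), and 3 and 0 of 10 in mural cells (17.8% and 15.4%). The counts are small and several are near those shares. Herpud1, a gene of degradation at the endoplasmic reticulum, was at 30, 32.2 and 33 CPM in P1 Schwann cells and at 82.8, 87.2 and 82.2 CPM at P60 (log2 1.35, edgeR adjusted p = 1.6e-05). Atf4, the central factor of the integrated stress response, fell there from 193, 188 and 200 CPM to 92, 108 and 92.5 CPM (log2 -1.04, edgeR adjusted p = 7.9e-05), and in fibroblasts by log2 -1.27. In mural cells Ppp1r15a, which ends the block of translation, rose by log2 1.09 and in endothelial cells it was lower, at log2 -1.03.

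Of 4 genes that flow regulates in endothelium, 3 were higher and 1 lower at P60 in endothelial cells, where 21.1% and 19.1% of all genes were. Vcam1, an adhesion molecule gene, went from 27.6, 7.71 and 25.4 CPM to 97.5, 118 and 123 CPM (log2 2.50), Thbd, which encodes thrombomodulin, had a log2 change of 1.08 and Edn1, which encodes endothelin 1, of 0.85. In Schwann cells all 4 were called higher, though Edn1 stood there at only 12.3, 4.72 and 10.3 CPM at P60, and endothelial markers moved with them, from 0.523% to 3.19% of their endothelial level. In fibroblasts 2 were higher and 2 lower, in mural cells 0 and 1 of 2 tested, and in immune cells 1 and 0 of 3, counts too small to set beside the shares of all genes given above.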
